A study of Rattus norvegicus with 6 samples.

Results

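The RFX family of transcription factors was examined across the deposited gene table of INS-1 cells, a rat insulinoma line that secretes insulin. Its members were the 7 rows whose gene name is Rfx1, Rfx2, Rfx3, Rfx4, Rfx5, Rfx6 or Rfx7, out of 35362 gene rows. Each cell population carried a Flag-tagged menin mutant introduced with a pMX-puro retrovirus. S487A puts alanine, which takes no phosphate, at a serine of menin, and S487D puts aspartate there, whose negative charge resembles that of a phosphate. Messenger RNA was sequenced from 3 libraries of S487A and 3 of S487D cells, at passages 75 to 80, and cells without a transgene or with wild-type menin were not analysed here. Every direction is therefore S487D relative to S487A. Nothing in the labels ties a group's libraries to separate cultures or transductions. The p-values thus cover only the spread among these 6 samples, possibly a technical one, and a mutant cannot be told apart from the cell population that carries it.

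RFX proteins bind DNA through a winged-helix domain that recognises the X-box, an inverted repeat whose arms read close to GTTGCC and GGCAAC. RFX2 and RFX3 switch on genes of cilia, and RFX4 does so in the developing brain. RFX1 is broadly expressed. RFX3 and RFX6 are needed for the formation and function of islet endocrine cells, where RFX6 acts downstream of Neurog3. RFX5 works in a complex with RFXANK and RFXAP on the promoters of MHC class II genes and recruits the coactivator CIITA. RFX7 has been linked to the p53 response and to lymphoid cells.

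An X-box arm lies close to the start of 3 members themselves, and their promoters are shown because they hold letters that RFX proteins recognise. RefSeq promoter windows of the GRCr8 rat build, a build other than that of the expression table, matched 6 of the 7 members by symbol; the unmatched member is Rfx6. The 250 bases before the annotated start are printed on the transcript's strand. Capitals mark the letters GNAACNGTTGCC (N, any base), an arm preceded by GNAAC. With the base just before the capitals, the letters ahead of the arm read AGCAAC in Rfx1 and Rfx3 and GGTAAC in Rfx2. Each is close to the other arm, GGCAAC, in the outward orientation. That extra base was not part of the string searched.
Rfx1 (chr19:40996810-40997059, minus strand): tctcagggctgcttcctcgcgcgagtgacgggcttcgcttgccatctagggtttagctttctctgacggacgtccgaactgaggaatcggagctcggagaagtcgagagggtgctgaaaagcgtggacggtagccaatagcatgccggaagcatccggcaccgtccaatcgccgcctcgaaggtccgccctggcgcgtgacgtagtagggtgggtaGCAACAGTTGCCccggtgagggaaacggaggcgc
Rfx2 (chr9:1758147-1758396, minus strand): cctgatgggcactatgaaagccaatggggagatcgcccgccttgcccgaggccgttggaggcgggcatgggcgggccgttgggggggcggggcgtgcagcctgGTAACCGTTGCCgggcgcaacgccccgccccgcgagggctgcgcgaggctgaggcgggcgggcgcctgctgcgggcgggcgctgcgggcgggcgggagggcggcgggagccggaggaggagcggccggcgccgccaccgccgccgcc
Rfx3 (chr1:235122423-235122672, minus strand): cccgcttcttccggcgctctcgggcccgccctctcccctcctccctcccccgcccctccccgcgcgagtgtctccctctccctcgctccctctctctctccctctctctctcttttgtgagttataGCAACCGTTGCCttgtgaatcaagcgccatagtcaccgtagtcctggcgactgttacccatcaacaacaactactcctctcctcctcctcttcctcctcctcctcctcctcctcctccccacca
The arm GTTGCC, searched on both strands (GGCAAC on the other), occurred in 1 place in each of these 3 promoters and in no window of Rfx4 (8 windows), Rfx5 (2) or Rfx7 (1). Over 27457 promoters, 1 window per symbol, 9.90% held the arm. The 12-letter string contains the arm and was searched on both strands as well (GGCAACNGTTNC on the other). It was chosen after the 3 sequences had been read, so its presence in them is a description. It lay 34 to 23 bases before the start in Rfx1, 147 to 136 in Rfx2 and 124 to 113 in Rfx3. It occurred in 16 of the 27457 promoters (0.0583%), of which these members are 3. Of the other 13 genes, 6 were tested, and 2 were lower in S487D, 1 was higher and 3 did not pass the test. Over all tested genes 24.3% were lower and 20.1% higher, so these few genes do not stand out from the rest. An inward arrangement, GTNNCC followed after 0 to 3 bases by GGNNAC, was found in 3.06% of promoters and in no window of a member. This string leaves out second arms that begin with A. The Rfx2 window holds GTTGCCgggcgcaac, where cgcaac is close to GGCAAC but does not match.

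**Figure D1:**
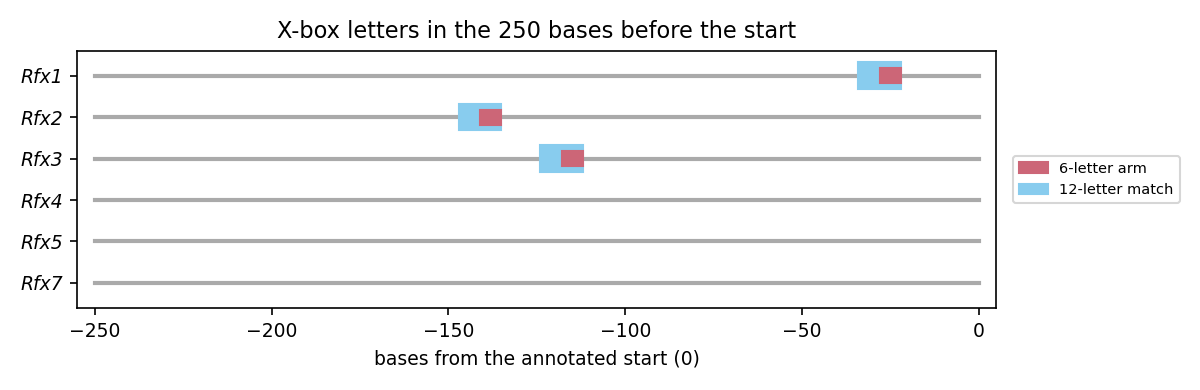
Position of the 6-letter arm (red) and of the 12-letter string that contains it (blue) in the 250 bases before the annotated start of 6 members; the horizontal axis gives bases from the start. Rfx1, Rfx2 and Rfx3 each hold 1 of each, and the windows of Rfx4, Rfx5 and Rfx7 hold neither.

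Of the 7 members 6 were expressed, and each of the 6 had lower values in every S487D library than in any S487A library. Rfx6 fell the most, by 54.4%, and Rfx3, the other islet member, came next. Rfx1, Rfx5 and Rfx2 fell by smaller amounts, Rfx7 did not pass the test, and Rfx4 had no reads. Levels are RPKM, reads scaled to gene length and to library size, given as mean ± SD over n = 3 libraries. Changes and their standard errors (SE) are differences of log2(RPKM + 1), where the added 1 shrinks those of weakly expressed genes. They were tested with limma over all genes that reached RPKM 1 in 3 or more libraries and called at a Benjamini-Hochberg adjusted p under 0.05. Of the 6 members tested, 5 were called lower and 0 higher. Among all 12527 genes tested, 24.3% were called lower and 20.1% higher, 44.4% in all. The members' median log2 change was -0.41 and that of all tested genes -0.01. In all 6 the groups' values did not overlap, with S487D below; this held for 29.5% of all tested genes. For 1 gene, 3 libraries against 3 allow an exact two-sided permutation p no smaller than 0.1, which is what each of the 6 gave.

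**Figure D2:**
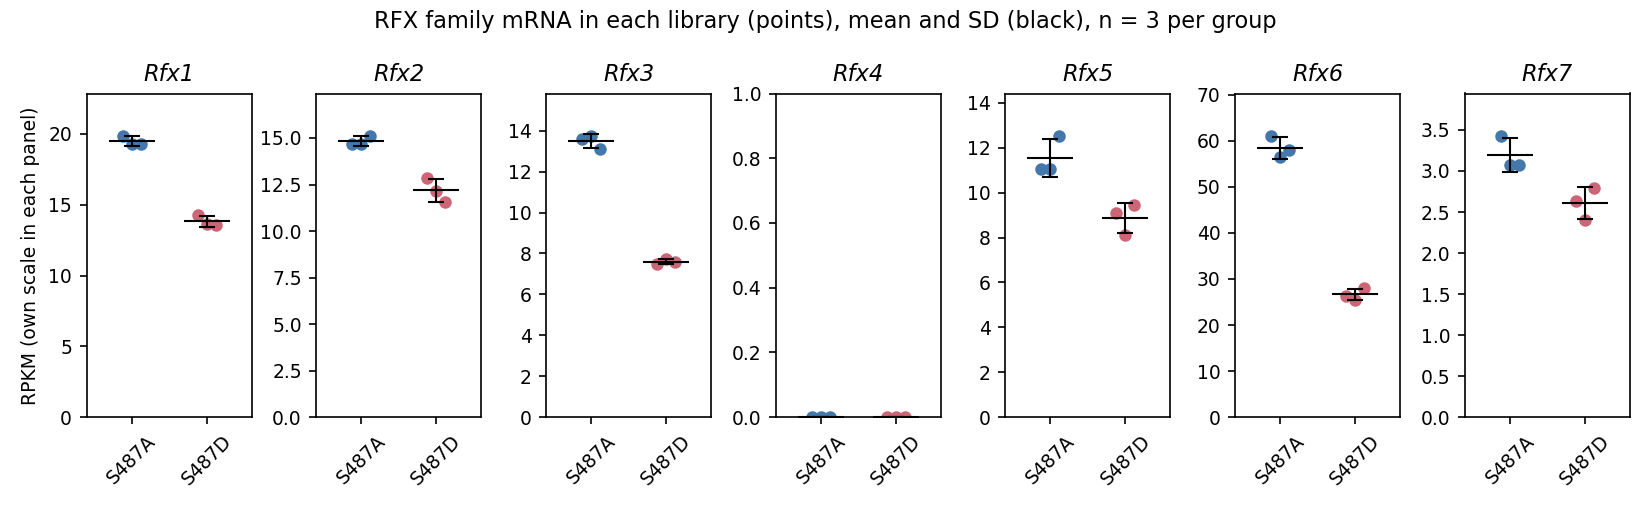
RPKM of each RFX member in each library (points), with mean and SD in black, n = 3 per group; each panel has its own vertical scale starting at 0. The S487D points lie below all S487A points for each member except Rfx4, which is at 0 throughout.

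Among the islet members, Rfx6 was read at 61.1, 56.4 and 57.9 RPKM in the S487A libraries and at 26.4, 25.5 and 28.0 in S487D. The lowest S487A value is 28.4 RPKM above the highest S487D value, and neither group has a library that stands apart. The mean fell by 54.4%, from 58.5 ± 2.4 to 26.7 ± 1.3 RPKM (log2 change -1.11, SE 0.0501, 95% interval -1.22 to -0.99, limma adjusted p = 2.56e-07). The values rest on 2312 to 2380 reads per S487A library and 944 to 1050 per S487D library. Of all tested genes, 1.49% had a change as low as that of Rfx6 or lower. In the S487A libraries Rfx3 was read at 13.6, 13.8 and 13.1 RPKM, and in the S487D libraries at 7.48, 7.71 and 7.58. Both groups are tight, and the mean fell by 43.7% (log2 change -0.75, SE 0.0526, adjusted p = 4.04e-06). A row on the opposite strand, LOC102550663, lies inside Rfx3 and held 0 to 2 reads per library.

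The broadly expressed Rfx1 was read at 19.9, 19.3 and 19.3 RPKM in S487A and at 14.3, 13.6 and 13.6 in S487D. All S487A values lie near each other and above all S487D values. The mean fell by 29.0% (log2 change -0.47, SE 0.0479, adjusted p = 4.99e-05). Rfx2, which acts on ciliary and germ cell genes, was read at 14.7, 14.7 and 15.1 RPKM in S487A and at 12.8, 12.1 and 11.6 in S487D. The gap between its groups is narrow, 1.83 RPKM, and the mean fell by 17.8% (log2 change -0.26, SE 0.0546, adjusted p = 0.00359).

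Rfx5, the MHC class II factor, was read at 11.1, 11.1 and 12.5 RPKM in S487A and at 9.09, 8.13 and 9.43 in S487D. Its mean fell by 23.1% (log2 change -0.34, SE 0.0727, adjusted p = 0.00398). Its groups do not overlap. The Rfx5 row lies within the span of Selenbp1 on the opposite strand, which is listed at 0 reads in every library. S487A replicate 3 is the highest Rfx5 library, and without it the log2 change was -0.29 (adjusted p = 0.0162). LOC103693152, on the opposite strand inside Rfx7, is likewise listed at 0 reads. Rfx7 was the weakest expressed member with reads. It was read at 3.43, 3.08 and 3.07 RPKM in the S487A libraries and at 2.63, 2.41 and 2.79 in the S487D libraries, on 185 to 278 reads per library. Its groups are separated by only 0.278 RPKM, and it did not pass the test (log2 change -0.22, 95% interval -0.40 to -0.03, limma adjusted p = 0.0560). It passed with limma voom on reads worked out from RPKM (adjusted p = 0.00693) and without the intensity trend (0.0265), and over 15 alternatives its adjusted p ran from 0.00693 to 0.291.

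Rfx4, the brain and testis member, is listed at 0 RPKM in all 6 libraries. The floor of 3 reads would stand for 0.0529 to 0.0609 RPKM in a gene of its listed length, 5214 bases. Its row lies within the span of LOC100910996 on the opposite strand, which held 453 to 580 reads per library, and how reads of overlapping rows were shared out is not given in the sources used here. A further RFX row, Rfx8, is outside the set of 7 and held 4 to 11 reads per library, at most 0.377 RPKM.

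The order of levels, each scaled to the gene's listed length, changed at 1 place. Whether the listed lengths match the transcripts expressed was not tested. In S487A it ran Rfx6, Rfx1, Rfx2, Rfx3, Rfx5, Rfx7, and in S487D Rfx5 stood above Rfx3. Neighbours in either order did not overlap in their library values. The closest pair in S487A was Rfx2 above Rfx3, where the mean level of Rfx2 was 1.10 times that of Rfx3. In S487D it was Rfx1 above Rfx2, at 1.13 times. The summed level of the family was 118 to 124 RPKM in S487A and 69.5 to 73.0 in S487D. Rfx6 held 48.3 ± 0.92% of that sum in S487A and 37.1 ± 1.1% in S487D. Rfx2 held 12.3 ± 0.34% and 17.0 ± 1.0%, so the remaining mRNA was less dominated by Rfx6.

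**Figure D3:**
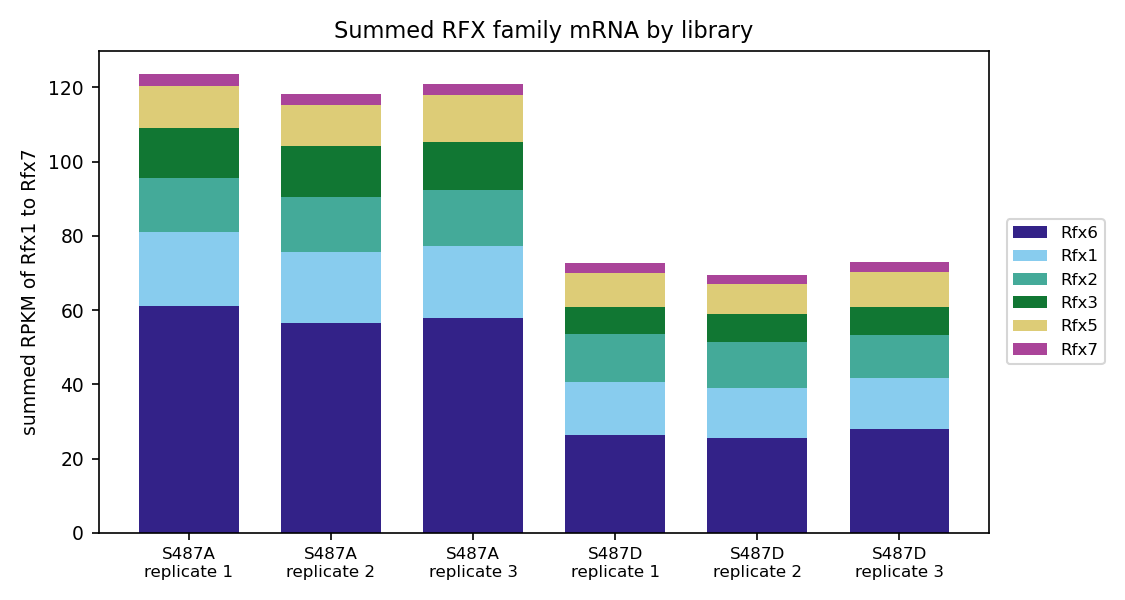
Summed RPKM of the RFX members in each library, stacked by member; Rfx4 adds 0. The S487A bars reach 118 to 124 RPKM and the S487D bars 69.5 to 73.0, and the Rfx6 segment shrinks the most.

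Ratios of RPKM between members were also compared, since they do not depend on library scaling. The ratio of Rfx6 to Rfx3 was 4.34 ± 0.21 in S487A and 3.51 ± 0.19 in S487D. The ratio of Rfx6 to Rfx7 was 17.8 to 18.9 and 10.0 to 10.6. Of the 15 pairs of expressed members, 11 had ratios that did not overlap between the groups, each with an exact permutation p = 0.1, again the least that 3 against 3 can give (0.136 after Benjamini-Hochberg adjustment over the 15, so none passed). Over all pairs of tested genes above 0 in every library, 55.5% of ratios did not overlap. The ratios of Rfx2 to Rfx7 overlapped throughout, at 4.28 to 4.93 in S487A and 4.14 to 5.05 in S487D. The other overlapping pairs were Rfx1 with Rfx5, Rfx2 with Rfx5 and Rfx5 with Rfx7.

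The 6 expressed members lie on 6 chromosomes, and their surroundings differed. Rfx6 lies on chromosome 20 from 32709282 to 32764040 (rn6), in a stretch of lowered genes. All 10 of its nearest tested neighbours, 5 on either side from 32213147 to 33584011, were called lower, with a median log2 change of -0.53 and a range of -1.11 to -0.23. Kpna5, an importin gene just before it, fell from 3.65 ± 0.45 to 2.84 ± 0.13 RPKM, and the uncharacterised LOC102555143 just after it from 1.76 ± 0.52 to 0.311 ± 0.42. Rfx6 fell by more than 9 of these 10, and its log2 change lay 0.58 lower than their median. LOC102555143, which sets the low end of the range, and Ros1 were under RPKM 1 in every S487D library. Both passed the filter only through S487A, so no support is drawn from their calls. On the whole of chromosome 20, 40.8% of the other tested genes were lower. The part of the stretch in the fall of Rfx6 was not tested.

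The counts around the other members are read against the 24.3% lower among all tested genes. Rfx3 lies on chromosome 1 from 245853332 to 246110664, where 2 of the 10 neighbours were lower, 3 higher and 5 did not pass (median log2 change -0.05), and with 10 genes on either side 6 of 20 were lower and 5 higher (-0.06). On one side the adjacent LOC499339 rose from 14.7 ± 0.86 to 18.3 ± 0.87 RPKM. Glis3, a zinc-finger factor of beta cells adjacent on the other side, was at 12.2 ± 0.96 and 11.1 ± 1.3 RPKM (adjusted p = 0.253). Rfx1 lies on chromosome 19 from 25181564 to 25212410, with 1 neighbour lower and 3 higher (median 0.04). The neighbour that fell is the adjacent LOC102555451 (log2 change -0.53), while Dcaf15 on the other side rose (0.21). Rfx5 lies on chromosome 2 from 196119055 to 196128109. None of its 10 neighbours was lower and 3 were higher (median 0.11), among them the proteasome gene Psmb4, which rose from 416 ± 20 to 529 ± 25 RPKM. Pi4kb on its other side did not pass (log2 change -0.02). On chromosome 2 as a whole 35.5% of tested genes were lower. Rfx2, on chromosome 9 from 10216195 to 10283467, had 4 neighbours lower and 2 higher, among the latter the adjacent Mllt1 (0.19), while Prr22 on the other side did not pass (-0.03). Rfx7, on chromosome 8 from 79159292 to 79279962, had 5 lower and 0 higher, with a median of -0.25 beside its own change of -0.22. With 10 genes on either side of Rfx7 the median was -0.07, with 6 of 20 lower and 1 higher, and for Rfx2 it moved from -0.14 to -0.02.

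**Figure D4:**
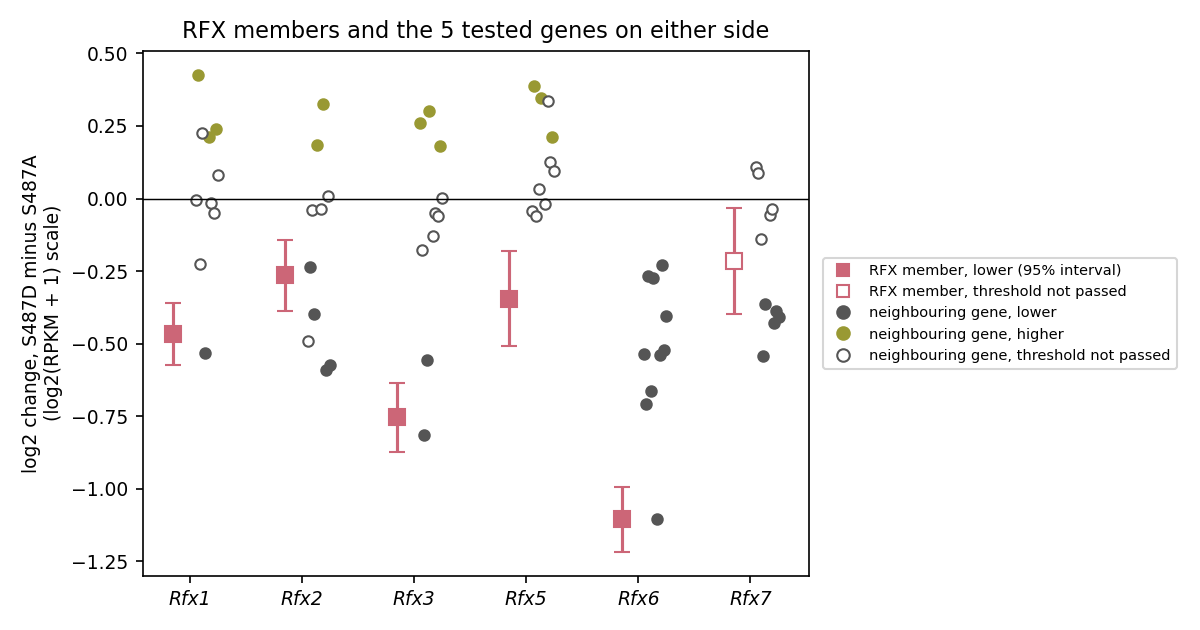
Log2 change (S487D minus S487A) of each tested RFX member with its 95% interval (squares) beside the 5 tested genes on either side (circles, filled where called). All 10 neighbours of Rfx6 were called lower, none of those of Rfx5 was, and Rfx6 lies below all but 1 of its neighbours. Among the neighbours of Rfx6, LOC102555143 and Ros1 passed the filter only through S487A.

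For each called member, the 3 genes with the most similar profile were those with the smallest Euclidean distance of log2(RPKM + 1), each gene centred on its mean over the 6 libraries. Rows without a plain gene symbol, such as LOC and RGD names, were not candidates. For Rfx6 they were Fnip2 (distance 0.0777), Esyt3 (0.0853) and Nhlrc3 (0.0973). For Rfx3 they were Arid2, Lxn and Ppl (0.0724 to 0.0743), and for Rfx1 Arsg, Cdh1 and Fam135a (0.0477 to 0.0586). Fnip2, Nhlrc3 and Lxn lie on chromosome 2 and Arid2 on chromosome 7, in long stretches of lowered genes. Esyt3 lies on chromosome 8 and Ppl on chromosome 10. The part of these stretches in the likeness was not tested. For Rfx2 they were Rnf34, Irf2 and Rilpl2, and for Rfx5 B4galt4, Pgr and Ten1, the most similar genes in each case. None of the most similar genes is an RFX gene. Candidates outside the family far outnumbered the members, so nothing is concluded from this. The closest pair within the family, Rfx2 and Rfx7, was 0.218 apart, and Rfx3 and Rfx6 were 0.454 apart.

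Genes of the primary cilium, the best known programme downstream of RFX factors, were mostly lower in S487D. Of 55 listed genes 54 were found and 51 tested; 33 were called lower (64.7%), 1 was called higher and 17 did not pass. Their median log2 change was -0.24. The corresponding shares over all tested genes are the 24.3% and 20.1% given above, and no test of the list as a set was made. Bbs7, a subunit of the BBSome that carries membrane proteins to the cilium, fell from 4.84, 4.61 and 4.69 RPKM in S487A to 1.66, 1.75 and 1.61 in S487D (log2 change -1.09, adjusted p = 3.22e-06). Ift80, of the intraflagellar transport particle, fell from 17.5, 14.9 and 16.3 to 6.33, 5.21 and 7.02 RPKM (log2 change -1.27, adjusted p = 6.66e-06). Pkd2, a cation channel of the ciliary membrane, was the only listed gene that rose, from 4.64, 4.53 and 4.33 to 7.66, 7.19 and 8.27 RPKM. Bbs7 and Ift80 lie on chromosome 2 and Pkd2 on chromosome 14, which hold long stretches of genes lowered or raised together. Without chromosomes 2, 7, 14 and 20, a choice made after seeing the data, 26 of 41 were lower (63.4%) and 0 higher, against 22.3% lower among the remaining 10115 genes.

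The fall was spread over the parts of the cilium, grouped here after the values were seen. All 6 tested genes of the transport motors kinesin-2 and dynein-2 were lower, among them Kif3a, Kifap3 and Dync2li1 (named outside the rule for named genes). Of the Bardet-Biedl genes 8 of 11 were lower, and of the transition zone genes, which form the gate at the cilium's base, 8 of 11. Of intraflagellar transport genes 8 of 17 were lower and 9 did not pass. After quantile normalization or median centring 25 of the 51 were lower and 2 higher, beside 2492 or 2453 lower and 3096 or 3512 higher among all 12527 genes. With a library left out 26 to 31 were lower, beside 2495 to 2734 of all genes.

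Lowered cilium genes were found both with and without an X-box arm in the promoter. Of 55 listed cilium genes 45 had a promoter window, and 12 of these (26.7%) held the arm GTTGCC, beside 9.90% of all promoters. Of 14 tested genes with an arm or the inward pair, 8 were lower and 6 did not pass. Of 28 tested genes with a window and neither, 19 were lower, 1 was higher and 8 did not pass. No test of this difference was made.

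**Figure D5:**
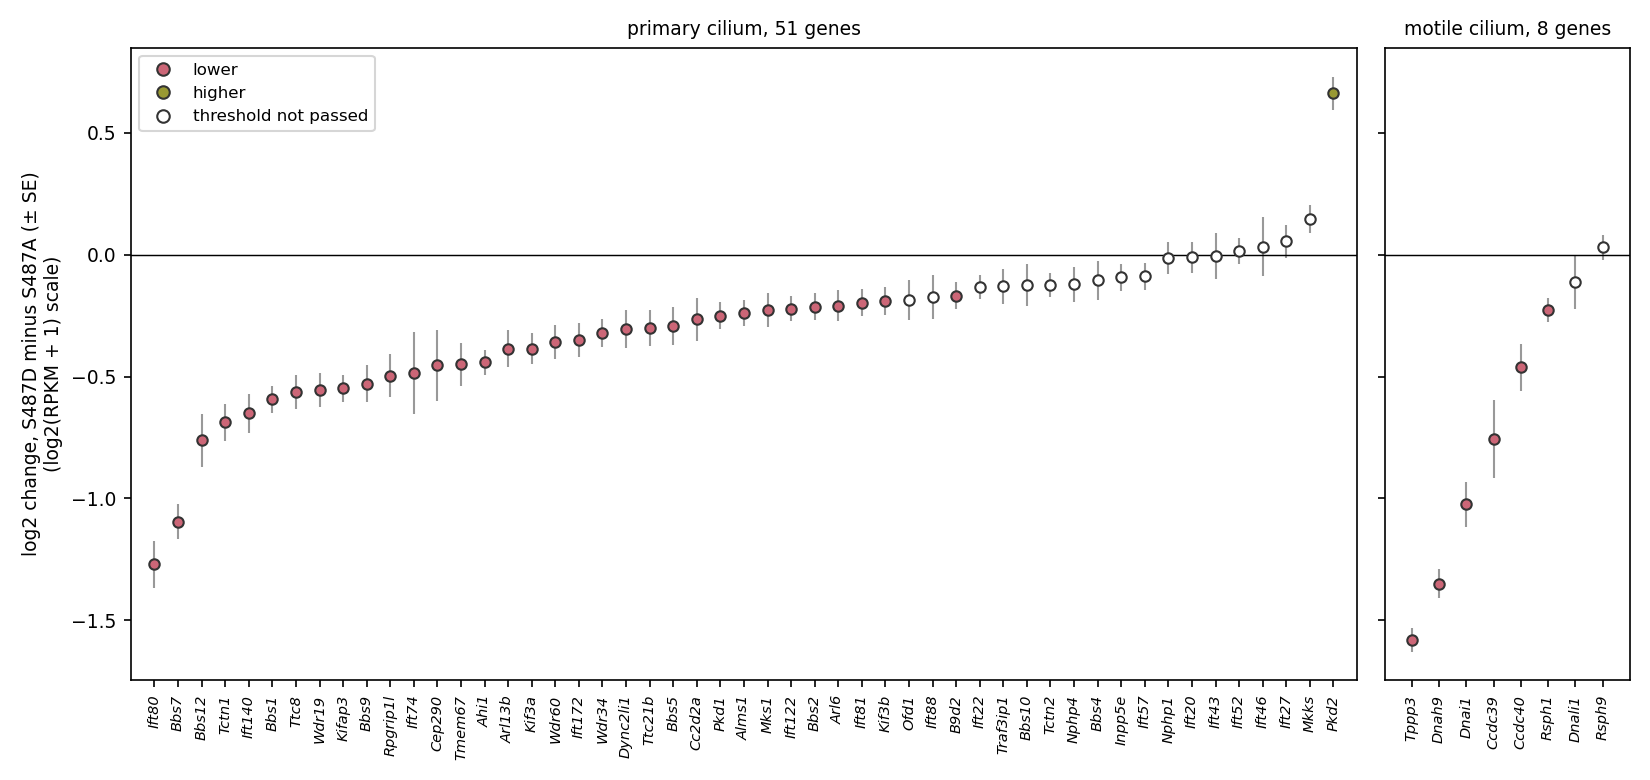
Log2 change (S487D minus S487A) with its SE for each tested gene of the primary cilium list (left, 51 genes) and the motile cilium list (right, 8 genes), ordered by change. Most of the left points and 6 of the right points are called lower, and Pkd2 is the only one called higher.

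Genes of motile cilia, which RFX2 and RFX3 control together with Foxj1, were mostly too low to test. Of 19 found, 8 were tested, 6 of them were lower and 2 did not pass. Dnai1, Ccdc39 and Dnali1 needed S487A libraries to pass the filter, so no support is drawn from this count. Tppp3, a tubulin-binding protein gene, fell from 50.1, 53.1 and 55.3 to 17.0, 17.4 and 16.6 RPKM (log2 change -1.58, adjusted p = 2.18e-08). Dnah9, a heavy chain of axonemal dynein, averaged 15.5 ± 0.74 RPKM in S487A and fell to 5.46 ± 0.16 in S487D (log2 change -1.35, adjusted p = 1.92e-07). Foxj1 itself was at 0.181 ± 0.028 and 0.178 ± 0.18 RPKM, under the filter.

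The partners of Rfx5 are the other subunits of its complex, Ciita and the factors that bind beside it. Rfxank, the ankyrin-repeat subunit, was at 11.5 ± 1.5 RPKM in S487A and 12.7 ± 0.39 in S487D. These groups overlap, and it did not pass the test (log2 change 0.15, adjusted p = 0.189). Rfxap, the remaining subunit, was under the filter at 0.349 ± 0.049 and 0.218 ± 0.0097 RPKM. Ciita was at 0.208 ± 0.066 and 0.200 ± 0.029 RPKM. Among the NF-Y subunits that sit beside the complex, Nfya rose from 12.8 ± 0.72 to 15.4 ± 0.21 RPKM and Nfyb fell from 17.8 ± 1.3 to 14.6 ± 1.4. Of 6 partners tested, 1 rose (16.7%), 1 fell (16.7%) and 4 did not pass, shares below the 20.1% and 24.3% over all tested genes.

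MHC class II and related genes were mostly under the filter. Of 12 listed genes, 4 were at 0 in every library, 4 more were under the filter and 4 were tested, 2 of them higher, 1 lower and 1, the invariant chain gene Cd74, that did not pass (7.24 and 8.05 RPKM on average). RT1-Da, a class II alpha chain, rose from 1.76, 1.47 and 2.12 to 2.70, 3.70 and 2.75 RPKM (log2 change 0.54, adjusted p = 0.00596). RT1-Ba, another alpha chain, rose from 0.576 ± 0.20 to 1.47 ± 0.055 RPKM (adjusted p = 0.00132) and passed the filter only through S487D. B2m, the light chain of class I, fell from 175 ± 3.0 to 157 ± 5.0 RPKM.

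Of 21 tested islet genes linked to RFX3 and RFX6, 7 were higher (33.3%), 9 lower (42.9%) and 5 did not pass (median log2 change -0.14). Over all tested genes these shares were 20.1% and 24.3%. Mafa and Ins2, an activator of the insulin genes and an insulin gene, rose from 35.0 ± 1.0 to 133 ± 11 and from 108 ± 1.4 to 341 ± 16 RPKM. Nkx6-1, a beta cell homeobox factor, fell from 10.1 ± 0.53 to 4.42 ± 0.43 RPKM, and Glp1r, the receptor of the incretin GLP-1, fell by 0.70 on the log2 scale, to 26.8 ± 1.6 RPKM. Neurog3, which acts before Rfx6 in development, is listed at 0 in all libraries. Ins1 and Ins2 are close copies whose reads the counting could split.

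The libraries held 9444801 to 10867549 reads assigned to listed genes, of which the 10 most read genes took 4.11 to 5.58% (S487A) and 5.54 to 7.81% (S487D). Men1, the gene of menin, averaged 74.3 ± 2.8 RPKM in S487A and 112 ± 7.8 in S487D, and whether its reads come from the transgene or the rat gene was not tested. Of 9 beta cell markers 8 were found and tested, 6 of them higher in S487D and 1, Nkx6-1, lower. The alpha cell marker Gcg averaged 96 ± 6.6 RPKM in S487A and 819 ± 41 in S487D, and Ttr was at 0. Acinar and duct markers, nearly all Krt7, summed to 208 to 226 and 80.8 to 84.7 RPKM, with Prss1 and Cpa1 at 0. Multiciliated cell markers, nearly all Rsph1, summed to 49.2 to 52.2 and 39.6 to 43.2 RPKM, with Foxj1 and Dnah5 under the filter. Some of these values rose and others fell beside the lowered RFX genes, and their part in the results was not tested. Endothelial and blood cell markers summed to at most 0.261 and 0.996 RPKM per library and fibroblast markers to 0.946 to 1.20 in S487A and 0.887 to 1.03 in S487D, with Col3a1, Dcn, Cdh5, Ptprc and Itgam at 0. In bulk samples, fewer cells of a type and less RNA per cell cannot be told apart.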

How the data were processed

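Per the labels' protocols, cells were lysed in Trizol and mRNA was made into libraries with a TruSeq RNA kit. Such libraries carry no strand mark, so reads from sequence shared by genes on opposite strands cannot be told apart by strand. The submitters' processing notes name bcl2fastq 2.17, cutadapt, TopHat2 2.0.13 and the rn6 (Rnor_6.0) build. Which counter and annotation made the table is not given in the sources used here. RPKM is what the authors deposited per gene and library, with position and length, per the file headers.

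Reads per gene were recovered from RPKM and length (99.95% or more of the values of each library within 0.05 of a whole read). limma 3.58.1 in R 4.3.3 was fitted to log2(RPKM + 1) of the 12527 genes with RPKM 1 or more in 3 libraries, with an intensity trend, and two-sided p-values were adjusted over them by Benjamini-Hochberg. The procedure was tested on simulated reads. Members and lists were chosen with earlier results of these data known. Named are the RFX members, Rfxank, Rfxap and Ciita, the 2 called genes of smallest p per direction and list, and the adjacent and most similar genes of called members; other names were chosen after their values were seen. Some marker genes are not reported here. Alternatives were pseudocounts of 0.1 and 0.01, no filter or one at RPKM 5, quantile scaling, median centring, no trend, voom, a replicate block, each library left out and, chosen after seeing the data, the most read genes left out.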

Additional observations from a re-analysis of the deposited data

How the results depend on the processing

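Rfx1, Rfx2, Rfx3, Rfx5 and Rfx6 stayed lower and past the threshold in all 16 alternatives, with log2 changes of -0.49 to -0.41, -0.30 to -0.20, -0.83 to -0.68, -0.39 to -0.27 and -1.14 to -1.05. Rfx7 was negative in the 15 alternatives that tested it (the filter at RPKM 5 did not). It passed without the intensity trend (log2 change -0.22, adjusted p = 0.0265) and with voom on recovered reads (-0.29, 0.00693). The median log2 change of all tested genes turned positive under quantile normalization, at 0.0330, and under median centring, at 0.0439; the cause was not tested. Of all calls 45.3% were upward on the deposited scale, against 55.4% under quantile normalization and 58.9% under centring.

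The replicate numbers did not pair the libraries: deviations of same-numbered libraries from their group means correlated at 0.00354, -0.0598 and 0.00998, and no S487A library correlated best with its own number. With the numbers as a replicate block, Rfx6 had a log2 change of -1.11 (limma adjusted p = 2.53e-06), 5 members were called lower and 0 higher, and 2966 of all tested genes were lower and 2369 higher, beside 3041 and 2523 without the block.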
